A study of Mus musculus with 5 samples.

Results

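The genes Kit, Flt3, Myb, Cdk6, Cd34, Meis1 and Cd48, known from blood-forming (haematopoietic) stem and progenitor cells, were followed through 5 single-cell RNA libraries of mouse bone marrow. They were taken by name as 7 of the 27998 genes in the count tables, and all 7 had counts. The libraries came from mice of the Nes-GFP strain, which carries a fluorescent reporter for nestin. Cells without surface CD45, the pan-leukocyte antigen, and with CD31, an endothelial adhesion molecule also present on some blood cells, were sorted from the endosteal bone surface, frozen, thawed and put into droplets for 3′ counting. The young group was 10 to 12 weeks old and held replicates 1, 2 and 3, and the aged group was over 20 months old and held replicates 2 and 3. The series text calls them biological replicates and does not say how many animals each held, so p-values measure the spread between these libraries.

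In bone marrow, KIT and FLT3 are receptor tyrosine kinases that pass growth and survival signals from stem cell factor and FLT3 ligand into stem cells, early myeloid cells and the first lymphoid progenitors. MYB and MEIS1 are transcription factors: MYB keeps progenitors of several lineages immature and is needed for B-cell development, and MEIS1 is a homeobox partner of HOX and PBX proteins. CDK6 is the kinase that D-type cyclins switch on to release cells into the DNA synthesis phase. CD34 is a surface sialomucin of progenitors and of vascular endothelium, and CD48 is a surface ligand of CD2 and CD244 that mouse stem cells lack and more committed progenitors carry.

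On the mouse build GRCm38, Kit (ENSMUSG00000005672) lies at chr5:75574916-75656722 on the plus strand, Flt3 (ENSMUSG00000042817) at chr5:147330741-147400489 on the minus strand and Cdk6 (ENSMUSG00000040274) at chr5:3341485-3531008 on the plus strand. Myb (ENSMUSG00000019982) lies at chr10:21124935-21160984 on the minus strand and Meis1 (ENSMUSG00000020160) at chr11:18879817-19018985 on the minus strand. Cd34 (ENSMUSG00000016494) at chr1:194938819-194961279 and Cd48 (ENSMUSG00000015355) at chr1:171682009-171705258 are both on the plus strand. All 7 are protein-coding genes of the annotation, and the 3′ counts measure the gene as a whole, not its isoforms.

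The promoters of Kit, Flt3, Cdk6 and Cd34 are shown because the differences between cell classes given below rest largely on these genes. Each run holds the 250 bases before the first start listed in RefSeq (GRCm38.p6), 5′ to 3′ on the gene's strand: Kit chr5:75574737-75574986 plus, Flt3 chr5:147400490-147400739 minus, Cdk6 chr5:3343643-3343892 plus and Cd34 chr1:194938571-194938820 plus. Capitals mark the core letters bound by MYB, AACNG on either strand, since Myb is itself among these genes.
Kit: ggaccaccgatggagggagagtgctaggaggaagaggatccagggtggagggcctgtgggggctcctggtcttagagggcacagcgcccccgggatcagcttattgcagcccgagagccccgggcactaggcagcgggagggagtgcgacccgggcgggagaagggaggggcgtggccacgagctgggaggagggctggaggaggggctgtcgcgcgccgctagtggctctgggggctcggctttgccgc
Flt3: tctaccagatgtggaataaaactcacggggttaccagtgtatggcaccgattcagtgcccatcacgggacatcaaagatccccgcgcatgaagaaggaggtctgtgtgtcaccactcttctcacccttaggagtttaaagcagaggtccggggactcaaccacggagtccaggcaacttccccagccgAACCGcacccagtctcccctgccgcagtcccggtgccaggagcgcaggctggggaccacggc
Cdk6: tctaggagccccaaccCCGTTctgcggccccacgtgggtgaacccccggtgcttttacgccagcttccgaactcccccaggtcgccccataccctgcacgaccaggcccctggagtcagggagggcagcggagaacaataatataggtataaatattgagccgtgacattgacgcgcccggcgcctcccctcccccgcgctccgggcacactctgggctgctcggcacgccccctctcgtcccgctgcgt
Cd34: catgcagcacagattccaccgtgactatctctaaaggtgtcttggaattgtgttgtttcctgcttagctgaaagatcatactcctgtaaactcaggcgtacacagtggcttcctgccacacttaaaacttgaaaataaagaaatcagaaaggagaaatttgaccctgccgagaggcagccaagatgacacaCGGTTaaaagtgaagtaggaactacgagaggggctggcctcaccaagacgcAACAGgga
The MYB letters occur 62 bases before the start of Flt3, 234 before that of Cdk6, and 59 and 8 before that of Cd34. They are not in these windows of Kit and Myb, Meis1 has 1 match and Cd48 has 3. Such short letters are common: 74.1% of 27025 mouse promoters of the same length hold them. The GATA letters AGATAA (in 10.3% of promoters) and the MEIS letters TGACAG (16.0%) were in none of the 7 windows, the RUNX letters TGTGGT (14.2%) were in Meis1 and Cd48, and the ETS letters CCGGAA (12.2%) were in Meis1. All were searched on both strands, no 2 matches in these windows overlapped, and a match describes the sequence and shows no binding.

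The tables held 3384 barcodes with 935656 to 5900751 unique molecular identifiers (UMIs, 1 per captured RNA molecule) per library. After leaving out barcodes with under 500 genes, under 1000 UMIs or over 10% mitochondrial UMIs, 2116 cells remained, 226 to 890 per library. Only 18 of them (0.851%) were placed in an endothelial-like group, although the sort was aimed at endothelium. They were the cells with a UMI of the endothelial gene Cdh5 in a sub-cluster of 29 cells. All 9 endothelial markers were seen in them, Cdh5 by the way the group was drawn. Most cells had B-lineage genes, and 4 B-like classes were named from marker genes, given here with some of the leading genes of their clusters: early (384 cells; Dntt, Vpreb1 and Igll1), middle (554 cells; Nav2, Cd2 and Ly6d), late (269 cells; Cd74, H2-Aa and Ms4a1) and dividing (699 cells; Cenpf, Ung and Top2a). A further 168 cells formed 4 sub-clusters in which 72.9% to 95.6% of cells had a UMI of Mpo, the myeloperoxidase of neutrophil granules. They are called Mpo-expressing, and 161 of them came from young replicate 1. The 7 genes were left out of the genes used for clustering. Young replicate 1 stood apart: 65.3% of its cells were dividing, against 8.71% to 11.1% in the other libraries, and its median was 4212.5 UMIs per cell against 1889.5 to 2866.5. Xist RNA had 0 UMIs in both replicate-2 libraries, and 5 barcode sequences of kept cells occurred in more than 1 library.

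**Figure D1:**
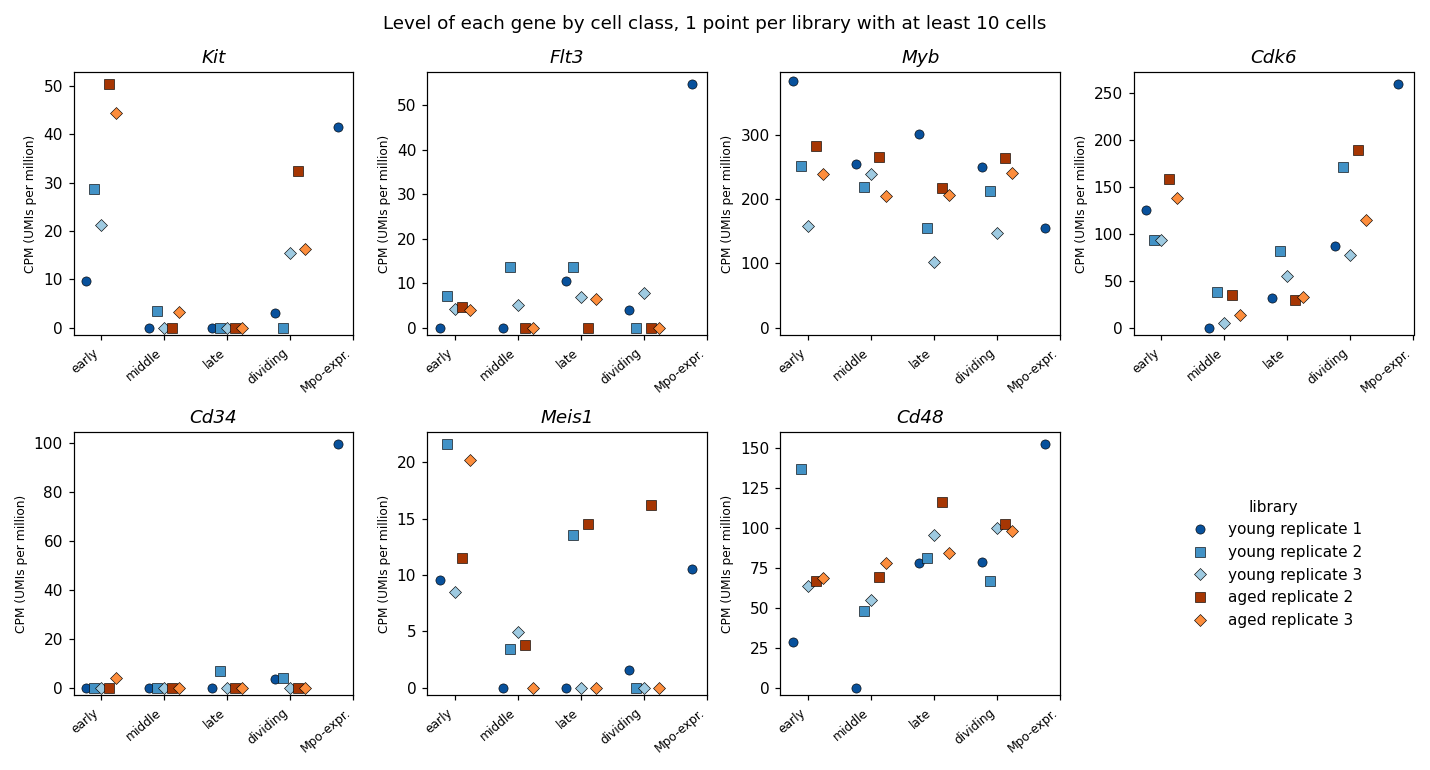
Level of each of the 7 genes (y axis, CPM) in 5 cell classes (x axis), 1 point for each library with at least 10 cells of the class. Kit sits at 0 in all 5 late points and between 9.59 and 50.4 CPM in the early points, and Cd34 reaches 99.5 CPM only in the single Mpo-expressing point.

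Kit, the receptor of stem cell factor, was seen in early and dividing B-like cells and had no UMI in any late sum. Levels are CPM, the gene's UMIs per 1000000 UMIs of the class in a library. In early cells of the young libraries (replicates 1, 2, 3) Kit was at 9.59, 28.8 and 21.3 CPM, and in those of the aged libraries (replicates 2, 3, always in this order) at 50.4 and 44.4 CPM, from 1, 4, 5, 22 and 11 UMIs. In late cells it had 0 UMIs in all 5 libraries (pooled, this allows up to 4.22 CPM), so the early and late levels did not overlap. Of the genes that passed the filter on low counts, 10.6% did not overlap between these classes, 6.68% with early cells the higher. Kit did not pass that filter, so these shares describe genes with more counts than Kit had here. Pooled over libraries, 43 Kit UMIs in early cells stood against 0 in late cells. The early level was 8.76-fold a floor of 3 UMIs over the late group, and the counting interval of the ratio began at 6.82. Of the 43 UMIs, 22 came from aged replicate 2, which held 19 of the 269 late cells. Library by library, in the order above, the interval began at 0.0473, 0.703, 0.569, 0.865 and 1.57. By counting alone, only aged replicate 3 thus excluded equality. The middle class had 2 Kit UMIs in 554 cells. Kit had too few counts for the main edgeR fit, whose filter asks for about 10 UMIs in enough sums. In the fit without that filter it was called higher in early than in late cells (edgeR quasi-likelihood, adjusted p = 3.26e-05 over 14472 genes, of which 6.45% were called). Early cells with a Kit UMI made up 9.90% of the class, and 3.12% when every cell was thinned to 1000 UMIs, against 0 of 269 late cells, which allows up to 1.12% of cells with a UMI at this depth and sets no limit on cells that express Kit. The median depths were 2777 and 2418 UMIs.

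Dividing B-like cells kept some Kit: 3.10, 0 and 15.4 CPM in the young and 32.4 and 16.4 CPM in the aged libraries, from 10, 0, 2, 6 and 3 UMIs. The dividing level was below the early level in 5 of 5 libraries and above the late level in 4. Without the filter edgeR placed Kit higher in dividing than in late cells (adjusted p = 0.00990; 11.7% called), while the lower value in dividing than in early cells missed the threshold (adjusted p = 0.0965; 17.4% called). Both early clusters carried it, at 38.2 CPM in the cluster led by Dntt and 34.5 CPM in the one led by Rpl3l.

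Flt3, the other receptor, was low in every B-like class. It had 5 UMIs in early, 5 in middle and 6 in late cells over all libraries (4.30, 4.55 and 8.45 CPM), and 14 in dividing cells (3.53 CPM). The counting intervals of early (1.40 to 10.0 CPM) and late cells (3.10 to 18.4 CPM) overlapped, and Flt3 was higher in early than late cells in 1 of 5 libraries. No test across libraries was possible in the main fit, and without its filter edgeR gave adjusted p = 0.881 for early against late. Side by side, Kit was counted 43 times in early cells and never in late ones, Flt3 5 and 6 times.

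Cdk6, the cyclin-D-dependent kinase, was higher in early than in late B-like cells. Its early level was 125, 93.5 and 93.5 CPM in the young and 158 and 137 CPM in the aged libraries. Its late level was 31.2, 81.1 and 54.7 CPM in the young and 29.0 and 32.3 CPM in the aged libraries, so no early value fell as low as any late one. The middle class held 0, 37.6, 4.99, 34.5 and 12.97 CPM in the same order, below the late level in 4 of 5 libraries; over all libraries it was the lowest of the B-like classes, at 22.8 CPM against 46.5 CPM in late cells. The fitted difference was 1.32 ± 0.29 on the log2 scale (SE, 5 libraries), or 2.50-fold, higher in 5 of 5 libraries (edgeR quasi-likelihood, adjusted p = 0.00104). In this comparison 21.3% of 3381 tested genes were called, 11.6% as higher in early cells, and of the 3 tested genes described here Cdk6 was the 1 called. Late sums held only 2 to 12 Cdk6 UMIs, so the gene passed the filter through the early and dividing sums. By counting alone, the early to late ratio included equality in young replicates 2 (1.15, interval 0.485 to 2.76) and 3 (1.71, 0.733 to 4.44). Young replicate 2 had 13 early against 12 late UMIs. Equality was excluded in young replicate 1 (3.997, 1.42 to 12.8) and aged replicates 2 (5.45, 1.45 to 45.9) and 3 (4.25, 1.65 to 13.9). The fold differed with how the classes were drawn: the log2 difference was 2.37 with coarser clusters, 2.40 when the 7 genes were used in clustering and 1.94 with the middle class added to the late one. With coarser clusters and with the 7 genes, aged replicate 2 had 5 and 6 late cells and gave no late sum. The late sums of the other libraries there held only 10 to 26 cells each.

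Dividing B-like cells held Cdk6 at 87.2, 170 and 77.0 CPM in the young and 189 and 115 CPM in the aged libraries. That was above the late level in 5 of 5 libraries, by 1.45 ± 0.28 on the log2 scale (edgeR adjusted p = 9.88e-05; 40.3% of tested genes were called). Against early cells it differed by 0.13 ± 0.21 (95% interval -0.31 to 0.56, edgeR adjusted p = 0.646), higher in 2 of 5 libraries, and by -0.051 without young replicate 2. Cdk6 did not rank the classes as the cell-cycle markers did: the 10 markers summed to 176 CPM in early, 569 CPM in late and 5581 CPM in dividing cells. Among the dividing cells, the cluster with the DNA synthesis genes Ung and Gins2 among its leading genes had 145 CPM and that with the mitotic genes Cenpf and Ube2c 42.1 CPM, a ratio of 3.44 (95% interval 2.67 to 4.48, counting error only). By library the ratio was 3.96, 2.70 and 0.920 for young mice, and 0.645 and 1.69 for aged mice; the mitotic cluster held only 3 cells in aged replicate 2. The pooled ratio therefore followed young replicate 1, which held 369 of the 422 mitotic-cluster cells.

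**Figure D2:**
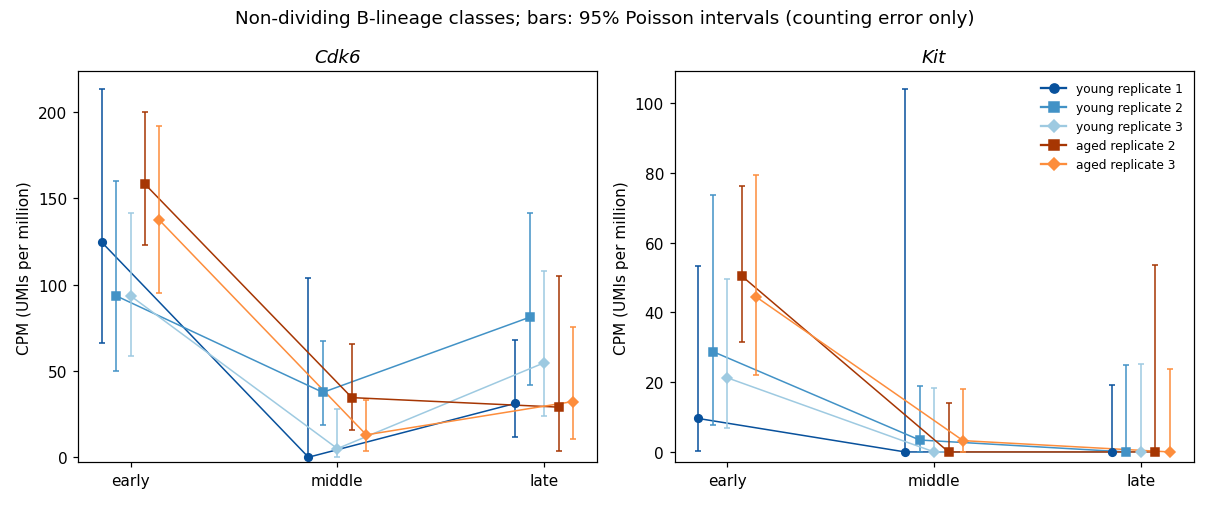
Levels (y axis, CPM) in the early, middle and late B-like classes (x axis), 1 line per library, with 95% Poisson bars that cover counting error only. These are the classes other than the dividing one, yet the late class held 569 CPM of cell-cycle markers, against 5581 CPM in the dividing class. Kit drops to 0 in all 5 late points, and each library's Cdk6 line ends in the late class below its early point.

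Myb, whose product is needed at several steps of B-cell development, was present in all B-like classes at similar levels. Early cells had 384, 252 and 157 CPM in the young and 282 and 238.3 CPM in the aged libraries. Late cells had 302, 155 and 103 CPM in the young and 218 and 207 CPM in the aged libraries. Within each library the early value was the higher, yet the ranges overlapped widely. The log2 difference of 0.40 ± 0.17 missed the threshold in edgeR (adjusted p = 0.10) and passed it in limma-trend (0.44, adjusted p = 0.0414). Middle cells stood at 204 to 265 CPM and dividing cells at 146 to 264 CPM. Dividing cells differed from early ones by -0.16 ± 0.15 (edgeR adjusted p = 0.397) and from late ones by 0.24 ± 0.17 (edgeR adjusted p = 0.434). Young replicate 3 had the lowest Myb level of the 5 libraries in early, late and dividing cells.

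Meis1, the HOX partner, was rare. It had 16 UMIs in early cells (9.59, 21.6 and 8.50 CPM in the young, 11.5 and 20.2 CPM in the aged libraries), and 3 each in middle and late cells. Early cells stood at 13.8 CPM over all libraries against 4.22 CPM in late cells, a ratio of 3.26 whose counting interval (0.933 to 17.5) includes equality. The early value was the higher in 4 of 5 libraries. Dividing cells held 8 UMIs, or 2.02 CPM over all libraries. Of these, 5 lay in young replicate 1 (1.55 CPM) and 3 in aged replicate 2. There the dividing level of 16.2 CPM was above the early level of 11.5 CPM.

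Cd34 was close to 0 in the B-like classes. Early and late cells held 1 UMI each, middle cells 0, which allows a level of up to 2.73 CPM, and dividing cells 13, of which 12 were in young replicate 1. The share of late cells with a Cd34 UMI was 0.372%.

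Cd48, the CD2 and CD244 ligand, was spread over all B-like classes. Its early level was 28.8, 137 and 63.8 CPM in the young and 66.5 and 68.7 CPM in the aged libraries, and its late level 78.0, 81.1 and 95.8 CPM in the young and 116 and 83.9 CPM in the aged. Late was the higher in 4 of 5 libraries, with young replicate 2 the exception. The log2 difference, early over late, was -0.32 ± 0.28 (interval -0.90 to 0.25, edgeR adjusted p = 0.480), and its sign turned with coarser clusters (0.43). Dividing cells held 66.5 to 103 CPM and differed from early ones by 0.44 ± 0.25 (edgeR adjusted p = 0.152). Without young replicate 2 that difference was 0.77 with an edgeR adjusted p of 0.0128. In dividing against early cells 0 of the 3 tested genes (Myb, Cdk6 and Cd48) were called by edgeR, DESeq2 or limma-trend, and 0 had an unadjusted p under 0.05 in edgeR, where 50.3% of all tested genes were called.

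**Figure D3:**
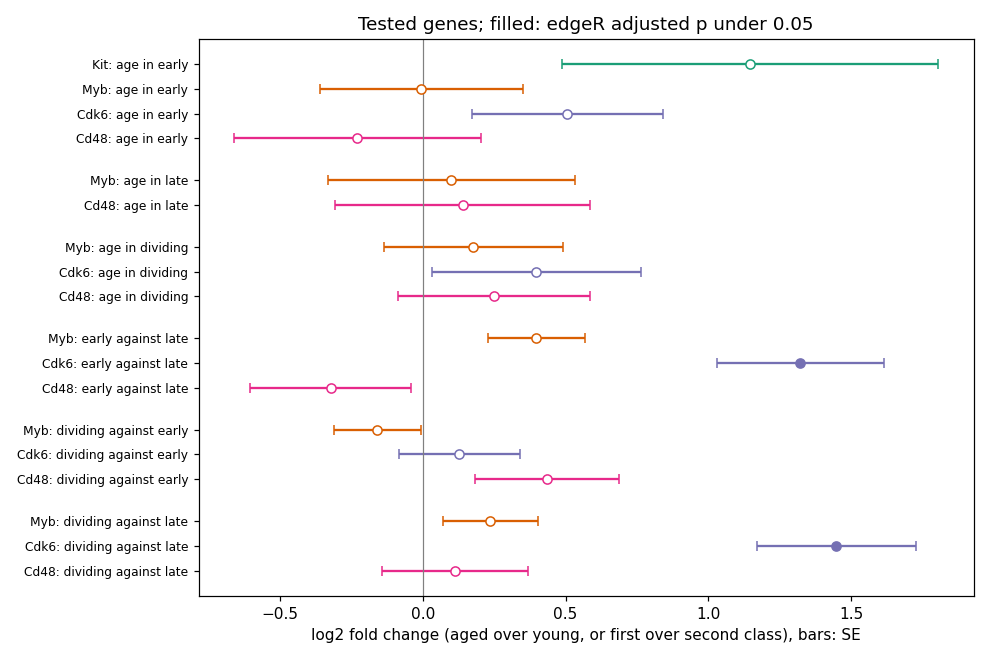
Log2 fold changes (x axis, with SE bars) of the members tested in each comparison (y axis); filled points passed an edgeR adjusted p of 0.05. Cdk6 against the late class is filled at 1.32 and 1.45, and every age comparison is open.

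The Mpo-expressing cells of young replicate 1 held UMIs of all 7 genes, and Kit, Flt3, Cd34, Cdk6 and Cd48 were above their levels in the dividing cells of the same library. Since 161 of the 168 cells lay in that library, there was no replicate, no test was made, and intervals cover counting error only. These cells were also the deepest, with a median of 10696 UMIs against 4186 in dividing cells, so levels are compared as CPM. Their 5 detected primary granule genes (Mpo, Prtn3, Elane, Ctsg and Ms4a3) summed to 11681 CPM, against 205 CPM in dividing and 192 CPM in early cells of that library. They were not a single type: bone matrix, erythroid, and basophil and mast cell markers were also seen. Without cells of 10 or more bone matrix or erythroid UMIs, of 3 or more basophil and mast cell UMIs or of 0 Mpo UMIs, limits chosen after the values were seen, 124 of 161 cells remained, with Kit at 40.6, Flt3 at 48.7 and Cd34 at 101 CPM.

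Kit stood at 41.6 CPM in these cells (79 UMIs), 13.4-fold its level in dividing cells (interval 6.92 to 29.0). Against the 1 Kit UMI of early cells in that library the ratio was 4.34 (0.756 to 173), which includes equality, and the early cells of both aged libraries, at 50.4 and 44.4 CPM, stood above 41.6 CPM. Flt3 stood at 54.8 CPM (104 UMIs), 13.6-fold the dividing level (7.60 to 26.4). Both receptors also had UMIs in the dividing cells of that library, 10 of Kit and 13 of Flt3, at these lower levels. Cd34 stood at 99.5 CPM (189 UMIs), 26.7-fold the dividing level (14.9 to 52.6), and was found in 52.2% of cells, or 9.94% after thinning, against 1.86% and 0.286% of all dividing cells. Meis1 reached 10.5 CPM (20 UMIs), 6.79-fold the dividing level (2.47 to 23.1) and close to the 9.59 CPM (1 UMI) of early cells in that library.

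Cdk6 was at 259 CPM (492 UMIs), 2.97-fold its dividing level (2.56 to 3.45) and 2.08-fold its early level (1.2 to 3.93). Cd48 was at 152 CPM (289 UMIs), 1.94-fold its dividing level (1.63 to 2.30). Myb went the other way, at 154 CPM (293 UMIs), 0.616 of the dividing level (0.537 to 0.705) and 0.402 of the early level (0.288 to 0.575). Myb was thus the 1 gene of the 7 that was higher in B-like cells than in Mpo-expressing cells of this library beyond counting error. Dividing cells of the same library held 197 Mpo UMIs, and per 1000 Mpo UMIs they had 50.8 of Kit, 66.0 of Flt3 and 60.9 of Cd34, against 16.5, 21.8 and 39.5 in the Mpo-expressing cells. The share of the dividing-cell counts that came from free RNA or doublets was not tested.

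**Figure D4:**
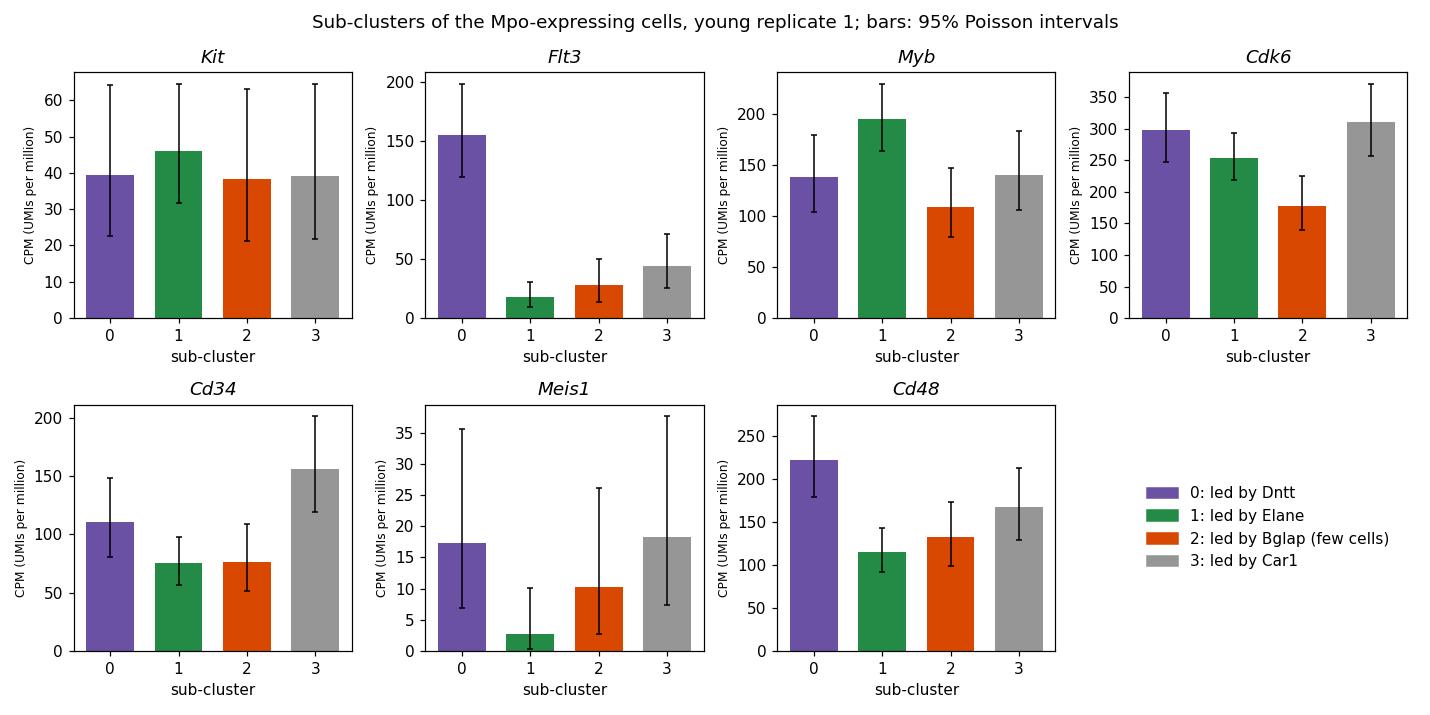
Levels (y axis, CPM) of the 7 genes in the 4 sub-clusters of Mpo-expressing cells of young replicate 1 (x axis), with 95% Poisson bars for counting error. Flt3 stands at 155 CPM in sub-cluster 0 and at 18.1 to 44.3 CPM in the others, and Kit at 38.2 to 46.0 CPM in all 4.

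Flt3 was uneven within the Mpo-expressing cells, while Kit stayed between 38.2 and 46.0 CPM. The 4 sub-clusters were led by Dntt, H2-Aa and Gcnt2 (0, 47 cells of young replicate 1), Elane, Ms4a3 and Nkg7 (1, 45 cells), bone genes carried by few cells (2, 36 cells) and Car1 (3, 33 cells). Flt3 was at 155 CPM in sub-cluster 0, 18.1 CPM in 1, 28.0 CPM in 2 and 44.3 CPM in 3. The ratio of sub-cluster 0 to 1 was 8.58 (4.67 to 17.0), and Flt3 was in 55.3% of cells of sub-cluster 0 against 17.8% in 1. Sub-cluster 0 was thus the one led by Dntt, the lymphoid DNA polymerase, and sub-cluster 1 the one led by Elane, a granule protease. Over all libraries Dntt was seen in only 31.2% and H2-Aa in 20.8% of the cells of sub-cluster 0, and Elane in 88.9% of those of sub-cluster 1. Mpo itself was in 74.5% of cells of sub-cluster 0 and 95.6% of sub-cluster 1. Kit was at 39.5, 46.0, 38.2 and 39.1 CPM in sub-clusters 0, 1, 2 and 3, with a ratio of 0.859 (0.441 to 1.60) between the first pair.

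Cd48 was 1.92-fold higher in sub-cluster 0 than in 1 (1.41 to 2.62), and Meis1 6.20-fold higher (1.18 to 61.1) from 7 and 2 UMIs. Myb was at 0.708 of sub-cluster 1 (0.510 to 0.972), the direction opposite to Flt3. Cd34 ranged from 75.2 CPM in sub-cluster 1 to 157 CPM in 3, and Cdk6 from 178 CPM in 2 to 310 CPM in 3. Sub-clusters are groups drawn from the same cells, so these are descriptions of 1 library.

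Single Mpo-expressing cells often carried several of the genes at once. In young replicate 1, 90.7% had UMIs of 2 or more of the 7 and the median cell had 4. At a common depth of 1000 UMIs per cell the share with 2 or more was 13.7% (exact interval 8.77 to 20.0%), against 6.51% in early, 4.58% in dividing, 2.23% in late and 1.44% in middle cells over all libraries. In young replicate 1 alone it was 0% of 37 early cells (up to 9.49%), 4.30% of dividing, 2.74% of late and 0% of 15 middle cells. Early cells of aged replicates 2 and 3 had 7.46% (3.64 to 13.3%) and 10.2% (4.78 to 18.5%), intervals that overlap that of the Mpo-expressing cells. Kit and Flt3 were seen together in 14 of the 161 cells, Kit alone in 40 and Flt3 alone in 39. Flt3 was in 25.9% of cells with Kit and 36.4% of cells without, although cells with Kit were deeper (medians of 15017 and 9459 UMIs). Cd34, by contrast, was in 61.1% of cells with Kit and 47.7% of cells without.

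A group of 11 cells led by Ctla2a, set apart from the endothelial-like cells after its values were seen, held all 7 genes. It lay in young replicates 1 (9 cells) and 2 (2 cells). Cd34 was at 419 and 458 CPM in these libraries and was found in 90.9% of the 11 cells. Kit had 7 UMIs (107 CPM), Flt3 8 (123 CPM), Meis1 7 (107 CPM), Cdk6 15 (230 CPM), Cd48 11 (169 CPM) and Myb 4 (61.4 CPM). Of 7 stem cell markers other than these genes, 6 had UMIs (summed level 1426 CPM, against 39.0 CPM in Mpo-expressing cells) and Slamf1 was at 0. Procr, the endothelial protein C receptor of stem cells, made up most of that sum, with 73 UMIs in 2 cells only. Of the 9 endothelial markers 7 were at 0, Cdh5 among them by the way the group was drawn. The cells are few and stay unnamed.

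Endothelial-like cells carried Cd34, and their total of 49650 UMIs was too small to place the other 6 genes. Cd34 had 26 UMIs in the 18 cells (524 CPM; 446, 718 and 1130 CPM in the young and 2165 and 397 CPM in the aged libraries) and was in 72.2% of them. Of those 5 values, 3 rest on 1 cell each. Flt3 and Meis1 had 0 UMIs, which allows up to 60.4 CPM, Kit and Cd48 1 each, and Myb and Cdk6 3 each.

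The partners of these genes were described along the same classes; the lists include genes that helped define the clusters (Socs2, Cdkn1a, Erg, Hhex, Tcf4, Sox4 and Cd2), so the counts, and the values of these genes, are descriptions. Over all tested genes 21.3% were called in early against late, 50.3% in dividing against early and 40.3% in dividing against late cells, and with so few genes a list no count is read as particular to its list. Of the receptors' ligands and signalling genes, 6 of 16 were tested in the 3 B-like classes. Early against late cells, 1 was higher and 2 lower, with a median log2 difference of -0.28 against -0.01 over all genes. Socs2, a feedback inhibitor of cytokine signalling, was higher by 1.53 ± 0.27, while the phosphatase Ptpn6, which acts on KIT, was lower by 1.96 on the log2 scale (-1.96 ± 0.28, edgeR adjusted p = 2.39e-06). The kinase Lyn was also lower (-0.78 ± 0.19, edgeR adjusted p = 0.00260). In dividing against early cells the list had 1 higher and 3 lower of 6 (50.3% called over all genes), and against late cells 1 higher and 4 lower (40.3%).

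Of 13 CDK6 partners and inhibitors 9 were tested. Early against late cells, 2 of the 9 were higher and 0 lower, a share near the 21.3% called over all genes. Both were inhibitors: Cdkn1a (2.15 ± 0.32) and Cdkn1b (0.64 ± 0.23, edgeR adjusted p = 0.0409). Ccnd3, the D-type cyclin of B progenitors, was at 0.54 ± 0.21 (edgeR adjusted p = 0.0646). In dividing against late cells 7 were higher and 0 lower, with a median of 1.56 against 0.00 for all genes. Among them were Cdkn2c (3.52 ± 0.37), an inhibitor of CDK4 and CDK6, the cyclin Ccne2 (4.55 ± 0.53) and Ccnd3 (1.56 ± 0.19, edgeR adjusted p = 6.49e-08). Against early cells 6 were higher and 1 lower, with Cdk4 at 1.75 ± 0.19 (edgeR adjusted p = 7.36e-09) where Cdk6 did not pass.

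Of 23 progenitor transcription factors 11 were tested, and early against late cells 4 were higher and 1 lower (median 0.34 against -0.01). Erg, an ETS factor of stem cells and early B cells, had the largest value at 5.86 ± 0.54, followed by the homeobox gene Hhex at 3.13 ± 0.35 and Tcf4 at 1.72 ± 0.19; all 3 helped define the clusters. In dividing cells the same 3 were lower than in early ones (-4.13, -2.61 and -1.58), within 7 lower and 1 higher of 11, where 50.3% of all genes were called. Myb did not pass in edgeR in any of the 3 comparisons of classes, and early against late it passed in limma-trend. Only 1 of 12 HOX, PBX and MEIS genes other than Meis1 had counts enough for a test. That gene, Pknox1, was at -1.10 ± 0.41 early against late (edgeR adjusted p = 0.0558) and higher in dividing than early cells (1.90 ± 0.33, edgeR adjusted p = 2.00e-05).

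Of 19 other progenitor surface genes 3 were tested: Cd44 (-1.32 ± 0.26, edgeR adjusted p = 2.90e-04) and Il7r (-0.66 ± 0.23, edgeR adjusted p = 0.0391) were lower in early than late cells, and Cd93 was at 0.16 ± 0.28. Il7r was also on the list of early B-cell markers used to name the classes, and here it went against the class name. The CD48 list had 4 of 12 tested, with 2 higher and 1 lower in early than late cells. Cd2, the receptor of CD48 one of the late B-cell markers, a leading gene of the middle class and used in clustering, was lower (-2.79 ± 0.29), and Slamf7 (0.92 ± 0.22) and Slamf6 (0.51 ± 0.18, edgeR adjusted p = 0.0378) were higher.

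The genes whose levels most resembled each member's over 21 sums per library and class are given as descriptions: these sums share libraries and depth. For Kit they were Kcnn4 (Pearson r = 0.82), Capns1 (0.79) and Ifitm2 (0.77), for Flt3 Calr (0.85), Bglap (0.78) and Col1a1 (0.76), and for Cd34 Ly6c2 (0.87), Bglap (0.86) and Plac8 (0.85). The 1 Mpo-expressing sum was the high point of Flt3 and Cd34. In that sum 160 of 161 cells held under 10 UMIs of the bone matrix genes, Bglap and Col1a1 among them. Its level of these genes therefore rests on few cells. For Cdk6 they were Psmb8 (0.86), Gstp1 (0.85) and Hprt (0.84), for Myb Ptbp3 (0.74), Senp6 (0.74) and Rbm6 (0.73), for Meis1 Rab2a (0.75), Gtpbp4 (0.74) and Dstn (0.72), and for Cd48 Mrto4 (0.89), Hadhb (0.88) and Arl1 (0.87). Among the 7 genes themselves, Flt3 with Cd34 had r = 0.76, Kit with Cdk6 0.69 and Kit with Meis1 0.59.

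Age was compared within the early, late and dividing B-like classes, 2 aged against 3 young libraries. None of the 7 genes was called, and edgeR called 0 of 4076, 0 of 2780 and 0 of 3220 genes in the 3 classes (percent called 0 in each). At an unadjusted p under 0.05 there were 108, 52 and 107 genes, and DESeq2 and limma-trend also called 0. Without aged replicate 3, edgeR called 5, 3 and 4 genes, none of them among the 7. In early cells Kit was higher in both aged libraries (50.4 and 44.4 CPM) than in any young one (9.59 to 28.8 CPM). The log2 difference was 1.15 ± 0.66 (interval -0.20 to 2.50, edgeR unadjusted p = 0.0924, adjusted p = 0.999). Cdk6 likewise did not overlap in early cells, at 158 and 137 CPM in the aged against 93.5 to 125 CPM in the young libraries, with a difference of 0.51 ± 0.33 (interval -0.18 to 1.19, edgeR adjusted p = 0.999). Of all genes tested in early cells 8.19% were likewise above the young range in both aged libraries. The early cluster led by Rpl3l and the Y-linked gene Eif2s3y made up 87 of the 134 early cells of aged replicate 2. Within it Kit was at 32.9 CPM in that library, and its part in the age values was not tested.

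In dividing cells Kit was again outside the young range in both aged libraries (32.4 and 16.4 against 0 to 15.4 CPM, from 6 and 3 UMIs). It had too few counts for the main fit. Of the genes that passed the filter of that fit, 11.7% were above the young range in both aged libraries. In late cells Flt3, also left out by the filter, was below the young range (0 and 6.46 against 6.84 to 13.5 CPM, from at most 2 UMIs a library). Of the genes that passed, 5.86% were below it. Both shares describe genes with more counts than Kit and Flt3 had here. The other comparisons overlapped. Myb differed by -0.01 ± 0.36 in early, 0.10 ± 0.43 in late and 0.18 ± 0.31 in dividing cells. Cd48 differed by -0.23 ± 0.43, 0.14 ± 0.45 and 0.25 ± 0.34 in the same order, and Cdk6 in dividing cells by 0.40 ± 0.37. The signs for Myb in early and late cells and for Cd48 in early cells turned when single libraries were left out. Whether the early to late difference of Cdk6 itself changed with age was tested as an interaction: it was larger by 1.30 ± 0.68 on the log2 scale in the aged libraries (edgeR unadjusted p = 0.0614, adjusted p = 1.00), which did not pass.

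Among the partner lists no gene was called with age in any class. Il7r, the interleukin 7 receptor of early B cells, had the smallest unadjusted p of the surface list in early cells (1.43 ± 0.38, edgeR unadjusted p = 8.83e-04, adjusted p = 0.999). In late cells the values were led by Cd27 (2.41 ± 0.76, edgeR adjusted p = 0.999) and in dividing cells by Cd2 (-1.10 ± 0.39, edgeR adjusted p = 0.993). The precision of these comparisons was limited: in simulated counts a change of 1 on the log2 scale was recovered for 23% of genes in early, 16% in late and 31% in dividing cells, and a change of 2 for 77%, 76% and 84%. The simulation gave every gene the same spread and let libraries differ only in depth and the planted changes. It used only genes that passed the filter, so its shares do not cover the members left out by it.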

How the data were processed

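The 5 tables hold raw UMI counts per gene and barcode, deposited by the authors. Per the submitters' processing notes they come from Cell Ranger and mm10, and without a role the notes also list DESeq2 1.22.2, edgeR 3.24.3 and R 3.5.2. The rule that chose the deposited barcodes is not given in the sources used here. Gene symbols were found for 27645 of 27998 IDs, and positions come from GENCODE M21.

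Kept barcodes had at least 500 genes, 1000 UMIs and at most 10% UMIs of 13 mitochondrial genes. Doublets (Scrublet in scanpy 1.11.5, 58 cells or 2.74%) were kept in the main analysis and left out in an alternative. Cells were clustered (Leiden, resolution 0.8, 1999 variable genes without the 7 described, 30 components) and sub-clustered where not B-like; classes were named from marker genes. UMIs were summed per library and class (at least 10 cells) and tested with edgeR 4.0.16 (quasi-likelihood, TMM, filterByExpr, Benjamini-Hochberg over all tested genes, threshold 0.05), with the library as a block between classes. Cells were not used as replicates; exact Poisson and Clopper-Pearson 95% intervals and the floor of 3 counts cover counting error only. DESeq2 1.42.0 and limma 3.58.1 were alternatives, with other filters, scalings, depths, clusterings and libraries left out. The edgeR fit was tested on simulated data.

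The 7 genes and the lists were chosen with earlier results of these data known. Named from each list were the 3 genes of smallest p per comparison of classes and the 1 of smallest p per comparison of age, of which the text gives part; for each of the 7, the 3 genes with the largest Pearson r of log2(CPM + 10) among 3128 genes of at least 50 CPM on average.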

Additional observations from a re-analysis of the deposited data

How the results depend on the processing

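Cdk6 stayed higher in early than in late cells and passed the threshold under every alternative that gave it a value (log2 1.14 to 2.40), and likewise in dividing against late cells (1.28 to 2.47); thinned to 1000 UMIs per cell it had too few counts to be tested. The members called in early against late cells numbered 1, and 2 with limma-trend, 2 without the filter and 0 after thinning; in dividing against late cells 1, and 2 without the filter and 0 after thinning; in dividing against early cells 0, and 0 to 1 with 1 library left out. Genes called in early against late cells numbered 720, and 185 after thinning, 446 at resolution 0.5, 465 when the 7 genes were used in clustering and 468 with no library block. In dividing against early cells they numbered 1701, and 368 after thinning; in dividing against late cells 1362, 274 after thinning and 2165 with the middle clusters added to the late class, an alternative chosen after seeing the data. Thinning left 865 genes to test.

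With age 0 genes were called in each class. Without the filter there were 3 in early and 4 in dividing cells, and with 1 library left out 0 to 5 in early, 0 to 3 in late and 0 to 4 in dividing cells, with the highest each time without aged replicate 3. With the replicate number as a block there were 5 in early, 1 in late and 8 in dividing cells, and none of the 7 genes was called. The labels do not say what a shared number means. Deviations of same-numbered libraries had r of 0.22, 0.21 and 0.25 for replicate 2 and 0.17, 0.13 and 0.14 for replicate 3 in early, late and dividing cells. With 2 aged libraries, the r of a young library with one is always the negative of its r with the other. The values for replicates 2 and 3 are therefore not separate evidence and do not decide what a shared number means. Young replicate 1, which has no same-numbered library, had 0.050, 0.088 and 0.082 with aged replicate 3.

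Values near 0 changed sign, and the cause was not tested. For Myb with age in early cells the log2 difference was 0.023 with limma-trend, 0.10 without the filter, 0.54 after thinning, 0.0035 at resolution 0.5, 0.014 with classes from marker UMIs, 0.37 with the replicate block and -0.30 to 0.39 with 1 library left out (above 0 without young replicate 1 or aged replicate 3). For Cd48 there it was 0.027 with limma-trend and -0.48 to 0.31 with 1 library left out (above 0 without young replicate 2). For Myb in late cells it was -0.92 at resolution 1.2, -0.019 with the middle clusters added, and -0.16 to 0.69 with 1 library left out (below 0 without young replicate 2 or 3). At resolution 1.2 aged replicate 2 had only 5 late cells and gave no sum. The value of -0.92 therefore sets aged replicate 3 alone against the young libraries, and does not show the effect of clustering by itself. For Cd48 in early against late cells it was 0.43 at resolution 0.5, 0.40 when the 7 genes were used in clustering and 0.15 with classes from marker UMIs. For Cdk6 in dividing against early cells it was -0.051 to 0.22 with 1 library left out (below 0 without young replicate 2).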
